A study of Mus musculus with 48 samples.

Results

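The 10 genes described here are those of the NF-κB system named Nfkb1, Nfkb2, Rel, Rela and Relb (subunits), Nfkbia and Nfkbie (inhibitors) and Tnfaip3, Traf1 and Birc3 (feedback and survival targets), out of 49568 genes in the deposited count table. They were chosen by gene symbol, with earlier results of these data known, and all 10 were found once. The cells were RAW264.7, macrophage-like mouse cells transformed by a leukaemia virus, and their RNA was sequenced 72 h after the start of treatment, with 1 change of medium at 48 h. Cultures received PBS or 1 of the synthetic peptides LE, SE and PE (100 µg/ml), and each of these 4 treatments was given without or with 5 ng/ml of IFN-γ, which makes 8 groups. Each peptide has 15 residues and spans positions 65 to 79 of the human HLA-DRβ chain. In the labels LE is the peptide of 65-79*0301, whereas SE comes from 65-79*0401 and PE from 65-79*0402. The labels name no scrambled peptide among these groups, and the model is a single cell line.

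NF-κB is a family of dimeric transcription factors that inhibitor proteins of the IκB family hold in the cytoplasm of resting cells. Signals from receptors such as those of the TNF, IL-1 and Toll-like families activate the IκB kinases, the inhibitors are degraded, and the freed dimers turn on inflammatory and survival genes. Among the targets are the inhibitors themselves, several subunits and Tnfaip3, an enzyme that edits ubiquitin chains and shuts the signal down, so that the mRNAs of these genes are used as readouts of NF-κB activity in macrophages. IFN-γ is the main macrophage-activating cytokine.

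Promoter sequence is shown for the members on which the results turn, because NF-κB dimers bind a known DNA site. RefSeq (GRCm38.p6) gave 11 windows, each from 250 bases before to 50 bases after an annotated start, for 8 of the 10 genes; Nfkb1 and Relb had no entry in the table used. The following lines give the 250 bases before the start, read 5′ to 3′ on the strand of the gene, and capitals mark matches to the NF-κB (κB) consensus on either strand.
Tnfaip3 (chr10:19015411-19015660, minus strand): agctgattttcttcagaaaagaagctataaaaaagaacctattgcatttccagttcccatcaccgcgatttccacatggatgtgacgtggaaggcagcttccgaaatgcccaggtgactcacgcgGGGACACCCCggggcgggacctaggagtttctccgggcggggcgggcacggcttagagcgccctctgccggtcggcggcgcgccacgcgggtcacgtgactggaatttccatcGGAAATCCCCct
Rel (chr11:23770970-23771219, minus strand): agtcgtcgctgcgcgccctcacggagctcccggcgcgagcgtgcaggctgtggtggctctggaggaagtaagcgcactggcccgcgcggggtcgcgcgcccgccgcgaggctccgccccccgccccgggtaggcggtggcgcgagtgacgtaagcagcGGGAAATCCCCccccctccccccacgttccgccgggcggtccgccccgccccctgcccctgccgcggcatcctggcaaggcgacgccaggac
Nfkbia (chr12:55492648-55492897, minus strand): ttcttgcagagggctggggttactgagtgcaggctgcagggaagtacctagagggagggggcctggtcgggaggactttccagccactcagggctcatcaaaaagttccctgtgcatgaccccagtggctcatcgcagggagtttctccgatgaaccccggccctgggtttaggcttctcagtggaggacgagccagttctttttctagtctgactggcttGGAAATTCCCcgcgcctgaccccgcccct
Nfkbie (chr17:45555450-45555699, plus strand): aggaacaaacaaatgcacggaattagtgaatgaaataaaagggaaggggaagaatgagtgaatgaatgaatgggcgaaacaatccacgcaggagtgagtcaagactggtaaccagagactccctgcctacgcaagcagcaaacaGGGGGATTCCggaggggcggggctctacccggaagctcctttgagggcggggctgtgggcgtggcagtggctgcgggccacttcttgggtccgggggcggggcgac
Traf1 (chr2:34961773-34962022, minus strand): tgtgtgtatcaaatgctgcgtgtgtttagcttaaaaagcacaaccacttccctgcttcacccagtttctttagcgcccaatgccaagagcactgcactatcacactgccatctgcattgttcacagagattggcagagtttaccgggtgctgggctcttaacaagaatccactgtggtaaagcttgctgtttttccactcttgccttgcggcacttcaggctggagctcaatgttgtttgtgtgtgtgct
Of the 11 windows, 7 (63.6%) held the κB consensus, against 4.51% of 32851 RefSeq windows of the same length. The genes were chosen as parts and targets of the NF-κB system, so the higher share follows from the choice and is no test. These 7 windows belong to 5 genes, namely Nfkb2 (3 starts, of which 2 overlap and share 1 site), Rel, Nfkbia, Nfkbie and Tnfaip3 (1 of 2 starts). The Tnfaip3 window held 2 matches, GGGACACCCC at 125 to 116 bases before the start and GGAAATCCCC at 12 to 3 bases before it. The Nfkbia match, GGAAATTCCC, lay 29 to 20 bases before the start, and the Nfkbie match, GGGGGATTCC, 106 to 97 bases before it. In Rel, 2 overlapping matches covered 92 to 82 bases before the start. The windows of Traf1, Rela and Birc3 held no match. A match is a description of the sequence, not a measurement of binding.

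**Figure D1:**
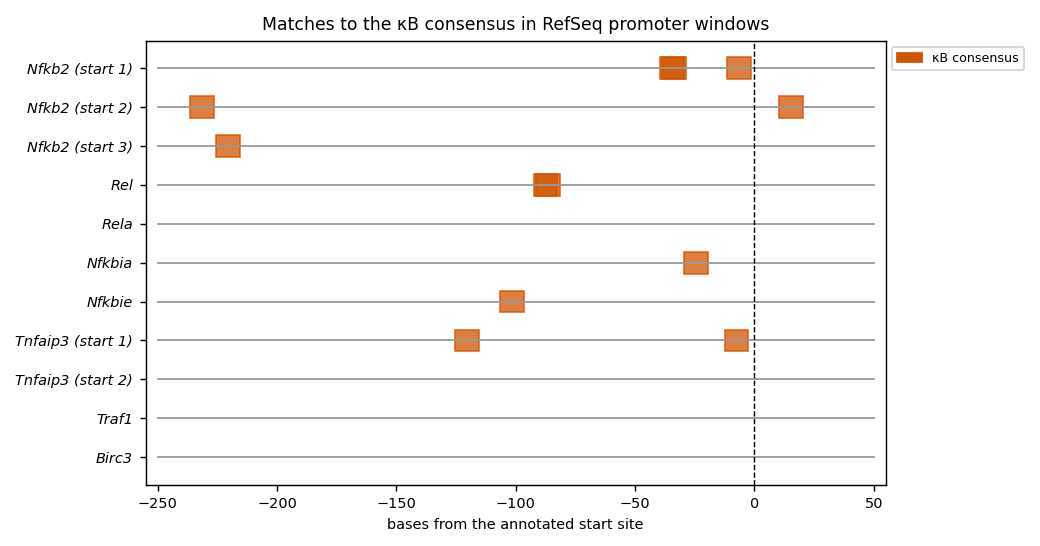
Matches to the κB consensus (orange) in 11 RefSeq promoter windows of 8 members, plotted by distance in bases from the annotated start (dashed line). The κB consensus is present in 7 of 11 windows, and Rela, Traf1, Birc3 and the second start of Tnfaip3 have none.

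The labels divide the 48 libraries into 24 whose description holds a letter, 3 in each group, and 24 whose description holds a number after HLA, also 3 in each group. The report uses the 24 letter-labelled libraries, which held between 16498562 and 26929356 counts each. As a check of the labels, the mean log2 CPM of 10 IFN-γ-induced genes was 7.28 to 7.64 in the 12 letter-labelled libraries labelled with IFN-γ and 2.18 to 2.51 in the 12 labelled without. In the HLA-labelled libraries, 12 of 24 lay on the other side of the midpoint from their label, so their values appear only in the closing section. All 8 macrophage markers were detected, at 6162 to 10868 CPM summed per library. Among them Mrc1 was low, at 0.152 to 2.74 CPM, so the sum does not speak for this marker. The summed markers of T cells, B cells, fibroblasts, epithelium and endothelium did not exceed 2.62 CPM in any letter-labelled library. The study describes the RAW264.7 libraries as biological replicates from independent experiments, but the labels do not tie a library to a culture or an experiment, so p-values measure the spread between these libraries.

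Levels are counts per 1000000 counts of the library (CPM), as mean ± SD over 3 libraries. Differences are log2 fold changes with standard errors (SE), tested with edgeR's quasi-likelihood test, with Benjamini-Hochberg adjustment over all genes tested. A gene was called changed at an adjusted p under 0.05 together with a fold of more than 1.5. All 10 members passed the filter on low counts in every comparison, and their lowest count in a letter-labelled library was 157 (Rel).

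Per kilobase of exon, the inhibitor Nfkbia and the subunit Rela were the most abundant members, with medians over the 24 libraries of 41.6 and 29.5 CPM per kb. Nfkb2 followed at 17.6, then Relb at 9.74, Nfkb1 at 9.67, Birc3 at 9.36 and Nfkbie at 5.50 CPM per kb. The lowest levels were those of Traf1 (2.46), Tnfaip3 (2.30) and Rel (2.11 CPM per kb), and these are 3 of the 4 members whose highest and lowest group means differed most, with ratios of 2.64, 2.84 and 2.44, Nfkbie being the fourth at 3.85. Rela, which encodes the main activating subunit, spanned only 81.6 to 98.8 CPM over all 24 libraries. The ranges of Rela overlapped between all 7 pairs of groups that neighbour each other in its order of means. Birc3, an inhibitor-of-apoptosis ubiquitin ligase, behaved likewise, from 36.4 to 52.9 CPM with all 7 neighbouring pairs overlapping. Nfkb2, the precursor subunit of the alternative pathway, spanned 66.4 to 94.5 CPM. Among the other 7 members, the ranges of 4 to 6 of the 7 neighbouring pairs overlapped. Rela, Birc3 and Nfkb2 were not called in any of the 16 comparisons. The exons of Nfkb2 overlap 299 bases of Psd on the other strand, and since the strand setting of the counting is not given in the sources used here, reads of the pair cannot be told apart.

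**Figure D2:**
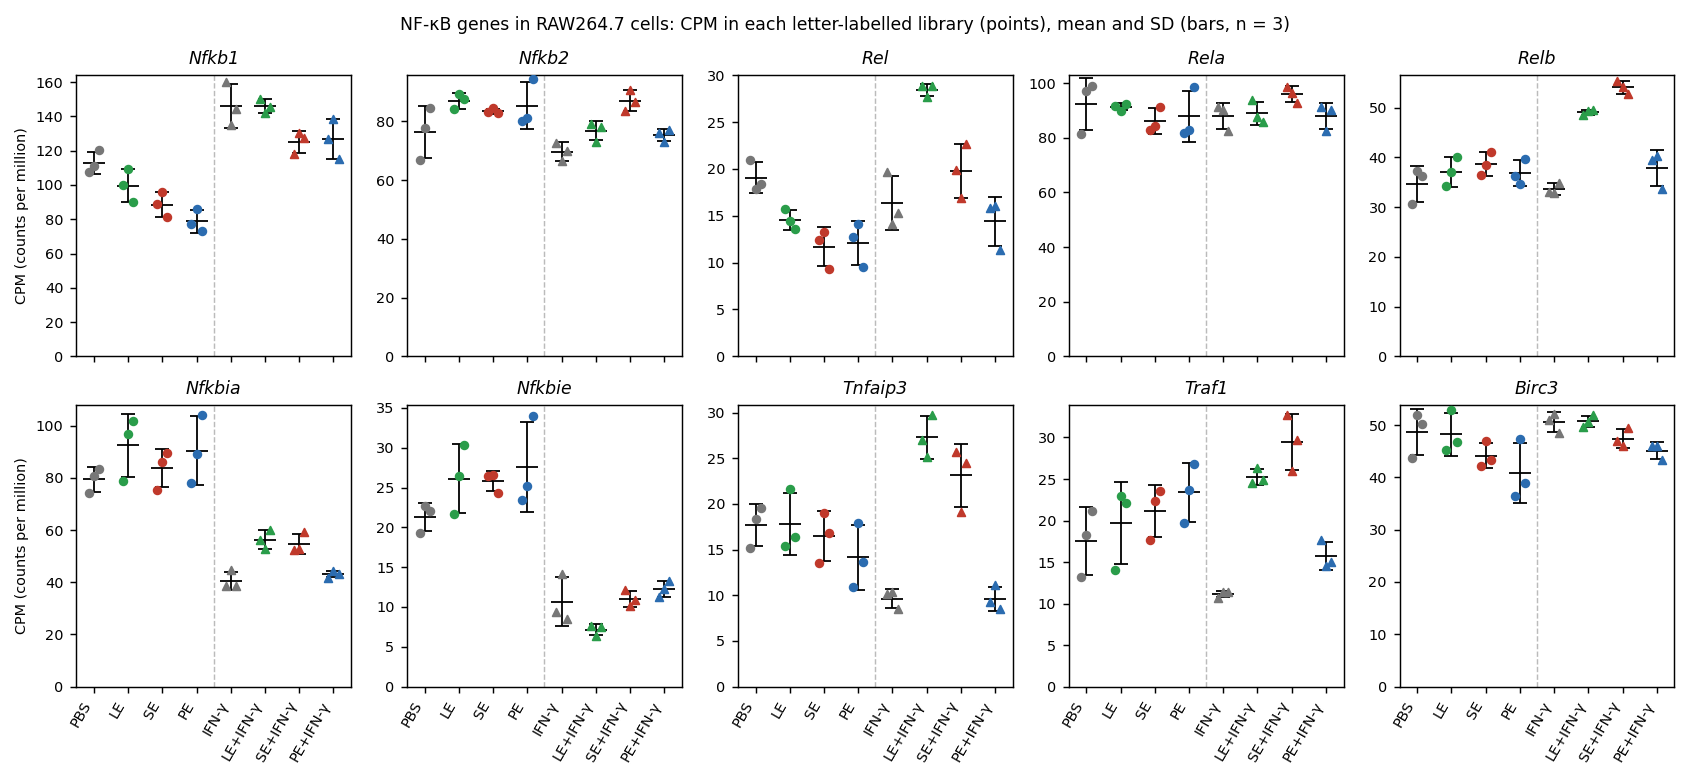
CPM of each member in the 24 letter-labelled libraries (points; circles without and triangles with IFN-γ), with the mean and SD of the 3 libraries of a group as bars; each axis starts at 0. Tnfaip3 and Traf1 with LE or SE and IFN-γ sit at 19.1 to 32.7 CPM, above all libraries with IFN-γ alone (8.44 to 11.4 CPM), while Rela and Birc3 keep overlapping ranges.

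IFN-γ alone was compared with PBS to see what the cytokine did to the system by itself. It lowered both inhibitors and 2 of the 3 feedback targets. Of the 10 members, 0 were called higher and 4 lower (Nfkbia, Nfkbie, Tnfaip3 and Traf1), where 18.1% of 12242 genes tested were called in either direction and 8.28% were called lower. The median log2 fold change was -0.16 over the members and -0.01 over all genes. No subunit was called: Nfkb1, which encodes a DNA-binding subunit made from a longer precursor, was at 108, 111 and 120 CPM with PBS and at 160, 135 and 144 with IFN-γ, without overlap, but its log2 difference of 0.39 (SE 0.08, adjusted p = 0.00225) stayed below the fold threshold. In these bulk libraries, fewer cells expressing a gene and less of its RNA per cell cannot be told apart.

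With IFN-γ present, LE and SE each raised Tnfaip3 and Traf1 to more than 2 times their level with IFN-γ alone, LE also raised Rel, and SE also raised Relb; PE raised none of the 10 by the call rule. This is the comparison that the study used to separate peptide effects from those of IFN-γ, and the 3 peptides share the same 3 IFN-γ libraries. For LE, 3 members were called higher and 0 lower, where 15.5% of 12720 genes were called and 9.58% were called higher. SE likewise had 3 called higher and 0 lower, where 7.39% of genes were called and 5.01% were called higher. The members were chosen with earlier results of these data known. The study itself names Traf1 among the genes raised by LE and Relb among those raised by SE. These counts are therefore a description and no independent evidence. PE had 0 of 10, where 0.629% of genes were called, and DESeq2 also called 0. With PE, 5 members had an unadjusted p under 0.05, as had 3580 of the 12720 genes. Over the members, the median log2 fold change was 0.32 (LE), 0.33 (SE) and 0.07 (PE), against a median of all genes between -0.01 and 0.

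**Figure D3:**
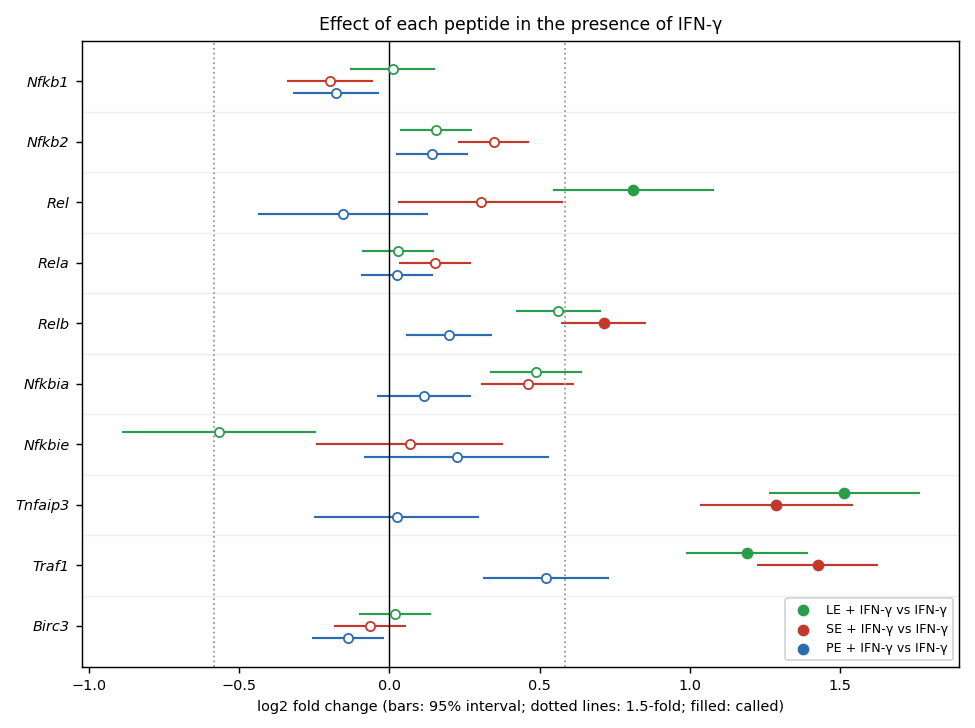
Log2 fold change of each member with LE, SE or PE plus IFN-γ against IFN-γ alone, with 95% intervals; filled points are called and the dotted lines mark a fold of 1.5. Tnfaip3 and Traf1 are called with LE and SE, Rel with LE and Relb with SE, and no point of PE is filled.

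Among the subunits, Rel (chr11:23736847-23770970, minus strand), which encodes c-Rel, the lymphoid and myeloid activating subunit, had its highest libraries with LE and IFN-γ. Its difference from SE with IFN-γ, a fold of 1.42, was not called. With LE and IFN-γ the 3 libraries held 28.8, 27.7 and 28.8 CPM, against 19.6, 14.1 and 15.3 with IFN-γ alone, and the groups did not overlap. The log2 difference was 0.81 (SE 0.13, adjusted p = 4.26e-05), a fold of 1.76. It came to 0.58, just under the fold threshold, after a trend of the fold changes with transcript length and GC content was subtracted, an alternative chosen after seeing the data. With SE and IFN-γ, Rel was at 19.8, 16.9 and 22.6 CPM, overlapping IFN-γ alone (0.30, 95% interval 0.03 to 0.58, adjusted p = 0.0842). PE and IFN-γ gave 15.8, 16.0 and 11.4 CPM, also overlapping, with a log2 difference of -0.16 (95% interval -0.44 to 0.13).

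Relb (chr7:19606217-19629438, minus strand), the partner of the Nfkb2 product in the alternative pathway and itself an NF-κB target, was called with SE only by the fold threshold. The libraries with IFN-γ alone held 33.1, 32.8 and 35.0 CPM, those with SE and IFN-γ 55.4, 54.1 and 52.7, and those with LE and IFN-γ 48.6, 49.3 and 49.5. Both peptide groups lay above IFN-γ alone in all 3 libraries. The log2 difference was 0.71 with SE (SE 0.07, adjusted p = 3.02e-07) and 0.56 with LE (SE 0.07, adjusted p = 2.16e-06), the latter a fold of 1.48. The direct difference of LE from SE, -0.15, had a 95% interval of -0.29 to -0.01 and an adjusted p of 0.0805. With PE and IFN-γ, Relb was at 39.6, 40.2 and 33.7 CPM, and its difference of 0.20 from IFN-γ alone had an adjusted p of 0.0711.

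Nfkb1 was near its level with IFN-γ alone when LE was added, at 150, 142 and 145 CPM (0.01, 95% interval -0.13 to 0.15). With SE and IFN-γ it was at 118, 130 and 127 CPM, below all 3 libraries with IFN-γ alone, and with PE and IFN-γ at 127, 138 and 115 CPM, which overlapped them. The SE difference of -0.20 had an adjusted p of 0.0314 and the PE difference of -0.18 one of 0.0945; neither reached a fold of 1.5. Nfkb2 passed the p threshold with SE (0.35, adjusted p = 0.00014) and LE (0.15, adjusted p = 0.0311) at folds of 1.27 and 1.11. Rela differed from IFN-γ alone by 0.03 with LE, 0.15 with SE and 0.03 with PE, and none of the 95% intervals reached beyond 0.27. The SE difference passed the p threshold (adjusted p = 0.0495) at a fold of 1.11.

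Of the inhibitors, Nfkbia (chr12:55489410-55492647, minus strand) encodes IκBα, which NF-κB itself induces and which ends the first wave of the response. It held 74.0, 80.9 and 83.4 CPM with PBS and 38.4, 44.6 and 38.7 CPM with IFN-γ. The lowest PBS library was above the highest IFN-γ library by more than the range within either group. The log2 difference was -0.95 (SE 0.09, adjusted p = 8.33e-06), and means were 79.4 ± 4.87 and 40.6 ± 3.49 CPM. With IFN-γ present, LE gave 56.1, 52.8 and 60.1 CPM and SE 52.3, 52.9 and 59.2 CPM, all above the libraries with IFN-γ alone and all below those with PBS. The differences from IFN-γ alone, 0.49 with LE (adjusted p = 2.68e-05) and 0.46 with SE (adjusted p = 0.000109), passed the p threshold at folds of 1.40 and 1.38 and so were not called. PE gave 41.7, 44.2 and 43.3 CPM, within the range of IFN-γ alone (0.11, 95% interval -0.04 to 0.27).

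Nfkbie (chr17:45555703-45563169, plus strand), which encodes IκBε, a further NF-κB-induced inhibitor, went down with IFN-γ and was lowest when LE was added. PBS libraries held 19.3, 22.7 and 22.0 CPM and IFN-γ libraries 9.34, 14.2 and 8.54 CPM, without overlap. The log2 difference was -0.98 (SE 0.17, adjusted p = 0.000838). LE with IFN-γ gave 7.65, 6.39 and 7.42 CPM, all below the libraries with IFN-γ alone (-0.57, adjusted p = 0.00486, lower by 1.48-fold and not called). SE with IFN-γ gave 12.1, 10.1 and 10.8 CPM and PE with IFN-γ 11.3, 12.3 and 13.2 CPM, both of which overlapped IFN-γ alone. Nfkbie was thus the only member lower with LE than with SE by the call rule, as described with the direct comparisons.

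Tnfaip3 (chr10:19000910-19015657, minus strand) had its highest levels with LE or SE in the presence of IFN-γ and its lowest with IFN-γ alone or with PE and IFN-γ. Its values were 15.2, 18.3 and 19.6 CPM with PBS and 10.1, 10.3 and 8.44 CPM with IFN-γ, which did not overlap. That decrease was -0.86 on the log2 scale (SE 0.14, adjusted p = 0.000408). In the presence of IFN-γ, LE gave 27.1, 25.1 and 29.8 CPM and SE 25.7, 19.1 and 24.5 CPM, so that 5 of these 6 libraries lay above the highest PBS library. Against IFN-γ alone, Tnfaip3 rose by 1.52 with LE (SE 0.12, adjusted p = 1.75e-08), a fold of 2.86, and by 1.29 with SE (SE 0.12, adjusted p = 2.83e-07), a fold of 2.44. PE gave 9.27, 11.1 and 8.48 CPM, a log2 difference of 0.02 (95% interval -0.25 to 0.30).

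Traf1 (chr2:34941750-34961772, minus strand), an NF-κB-induced adaptor of TNF receptor family members, also had its highest group means with LE or SE in the presence of IFN-γ. Here the SE mean was above the LE mean (29.4 and 25.2 CPM), although the ranges overlapped. PE alone, at 19.7 to 26.9 CPM, overlapped LE with IFN-γ as well. PBS libraries held 13.2, 18.3 and 21.2 CPM and IFN-γ libraries 10.7, 11.4 and 11.4 CPM. The difference was -0.64 (SE 0.16, adjusted p = 0.00907). Without replicate 1 of both groups it was -0.77 (adjusted p = 0.00061), and the call was lost without replicate 2 (-0.61, adjusted p = 0.0726) and without replicate 3 (-0.50, adjusted p = 0.0699). With IFN-γ present, SE gave 32.7, 25.9 and 29.7 CPM and LE 24.5, 26.3 and 24.9 CPM, above all libraries with IFN-γ alone. The rises were 1.43 with SE (SE 0.10, adjusted p = 6.57e-09), a fold of 2.69, and 1.19 with LE (SE 0.10, adjusted p = 2.29e-08), a fold of 2.28. PE gave 17.7, 14.5 and 15.0 CPM, above all 3 libraries with IFN-γ alone, with a difference of 0.52 (adjusted p = 0.00713) at a fold of 1.44, which was not called. Traf1 was the only member past the p threshold with PE. Birc3 differed from IFN-γ alone by 0.02 (LE), -0.07 (SE) and -0.14 (PE) (adjusted p = 0.123), and the 95% intervals of the 3 lay within -0.26 and 0.14.

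The peptides were also compared with each other at the same dose and time, all with IFN-γ, over 3 pairs of groups. LE exceeded PE for Tnfaip3 (1.49, SE 0.12, adjusted p = 1.57e-08), Rel (0.97, SE 0.13, adjusted p = 5.14e-06) and Traf1 (0.67, SE 0.09, adjusted p = 8.17e-06), and fell below it for Nfkbie (-0.79, SE 0.15, adjusted p = 0.000218). These are 3 members higher and 1 lower, where 21.6% of 12720 genes were called. SE exceeded PE for Tnfaip3 (1.27, SE 0.12, adjusted p = 4.49e-07) and Traf1 (0.91, SE 0.09, adjusted p = 1.03e-06), where 7.59% of genes were called and 5.25% were called higher. Between LE and SE, 1 member was called, Nfkbie, which was lower with LE (-0.64, SE 0.15, adjusted p = 0.00403), where 4.93% of genes were called and 1.62% were called lower. Rel was higher with LE than with SE by 0.51 (adjusted p = 0.00479) at a fold of 1.42, under the threshold, although the 2 sets of libraries did not overlap. Tnfaip3 differed between LE and SE by 0.23, with a 95% interval of -0.01 to 0.46, and Traf1 by -0.24, with an interval of -0.42 to -0.05. With the length and GC trend subtracted, the Nfkbie differences became -0.47 (LE against SE) and -0.54 (LE against PE) and the Traf1 difference of LE from PE 0.55, all under the fold threshold; Traf1 also fell under it without replicate 2, at 0.58. In the fits of LE with IFN-γ against SE with IFN-γ, the fold changes of all genes had a Spearman correlation of 0.35 with exon length and -0.47 with GC content across genes, and the part of this trend in the result was not tested.

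Without IFN-γ at most 1 of the 10 members was called with any peptide, where few of all genes were called either. Below a fold of 1.5, Rel, Nfkb1 and Nfkbie passed the p threshold with PE. LE against PBS had 0 of 10 members called, where 0.0242% of 12420 genes were called, and DESeq2 called 0. There, 4 members had an unadjusted p under 0.05, as had 1953 of the 12420 genes. PE against PBS had 0 of 10, where 3.13% were called, and DESeq2 called 0. Here 6 members had an unadjusted p under 0.05, as had 4405 of the 12420 genes. SE against PBS had 1 member called, Rel, which was lower, where 1.92% of genes were called and 1.25% were called lower. Rel held 21.0, 17.9 and 18.4 CPM with PBS, 12.4, 13.3 and 9.32 CPM with SE, 12.8, 14.1 and 9.52 CPM with PE and 15.7, 14.4 and 13.6 CPM with LE, so that all 9 peptide libraries lay below the PBS libraries. The log2 difference with SE was -0.64 (SE 0.14, adjusted p = 0.0134), and it lost the call without replicate 1 (-0.62, adjusted p = 0.202), without replicate 3 (-0.54, adjusted p = 0.0746) and with the length and GC trend subtracted (-0.42). PE lowered Rel by 0.56 on the log2 scale (adjusted p = 0.0161), a fold of 1.48 and thus not called, and the LE difference was -0.34 (adjusted p = 0.272). Nfkb1 held 99.7, 109 and 90.1 CPM with LE, which overlapped PBS, while its SE libraries (88.8, 95.7 and 81.2 CPM) and PE libraries (77.2, 86.0 and 73.2 CPM) lay below all PBS libraries. Its differences from PBS were -0.14 (LE, adjusted p = 0.385), -0.28 (SE, 0.0312) and -0.43 (PE, 0.00578), none with a fold of 1.5. Nfkbie was above the highest PBS library in 2 of 3 LE libraries, 3 of 3 SE libraries and 3 of 3 PE libraries, at 21.7 to 34.0 CPM over the 9, with differences of 0.34, 0.34 and 0.45 and adjusted p of 0.306, 0.135 and 0.049. In the 3 comparisons with PBS, fold changes of all genes correlated with length at Spearman values of -0.37 to -0.45 and with GC content at 0.38 to 0.45; the part of this trend in these differences was not tested.

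IFN-γ was then compared with its absence in cells that received the same peptide, the second contrast the study used. Both inhibitors fell with each peptide, while the feedback targets moved in different directions. With LE, 2 members were called higher and 2 lower, where 35.1% of 12947 genes were called; with SE 1 higher and 2 lower (26.3% of genes); and with PE 1 higher and 4 lower (21.0% of genes). Nfkbie fell by 1.89 with LE (SE 0.15, adjusted p = 6.24e-10), by 1.27 with SE (SE 0.14, adjusted p = 2.01e-07) and by 1.22 with PE (SE 0.14, adjusted p = 4.45e-07) on the log2 scale. Nfkbia fell by 0.74, 0.65 and 1.12 (adjusted p = 4.76e-06, 3.36e-05 and 4.24e-08); with the length and GC trend subtracted, the first and second became -0.39 and -0.45, under the fold threshold. Rel was higher with IFN-γ in cells with LE (0.94, adjusted p = 3.82e-06) and with SE (0.73, adjusted p = 0.000167), and came to 0.58 and 0.55 with that trend subtracted; without replicate 3 the SE value was 0.50. In cells with PE the Rel difference was 0.19 (95% interval -0.11 to 0.49).

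Tnfaip3 was at 15.4, 21.6 and 16.4 CPM with LE alone, below the 3 libraries with LE and IFN-γ, and at 13.6, 19.0 and 16.9 CPM with SE alone. In cells with LE the difference was 0.59 (adjusted p = 0.00254), at the fold threshold, and it lost the call without replicate 1 (0.50), without replicate 3 (0.47) and with the trend subtracted (0.41). In cells with SE, Tnfaip3 was not called, and Traf1 was not called in cells with LE or SE. In cells with PE, Tnfaip3 fell by 0.61 (adjusted p = 0.00605) from 10.9, 17.9 and 13.6 CPM without IFN-γ. Traf1 fell there by 0.62 (adjusted p = 0.00309) from 19.7, 23.6 and 26.9 CPM. Both PE calls were lost without replicate 2 (Tnfaip3 -0.54, Traf1 -0.58) and without replicate 3 (Tnfaip3 -0.54, adjusted p = 0.0598; Traf1 -0.47, adjusted p = 0.0523). Nfkb1 was higher with IFN-γ in all 4 settings, by 0.39 against PBS, 0.53 with LE, 0.46 with SE and 0.64 with PE; the last (adjusted p = 2.33e-07) was the only one past the fold threshold and came to 0.53 with the trend subtracted.

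**Figure D4:**
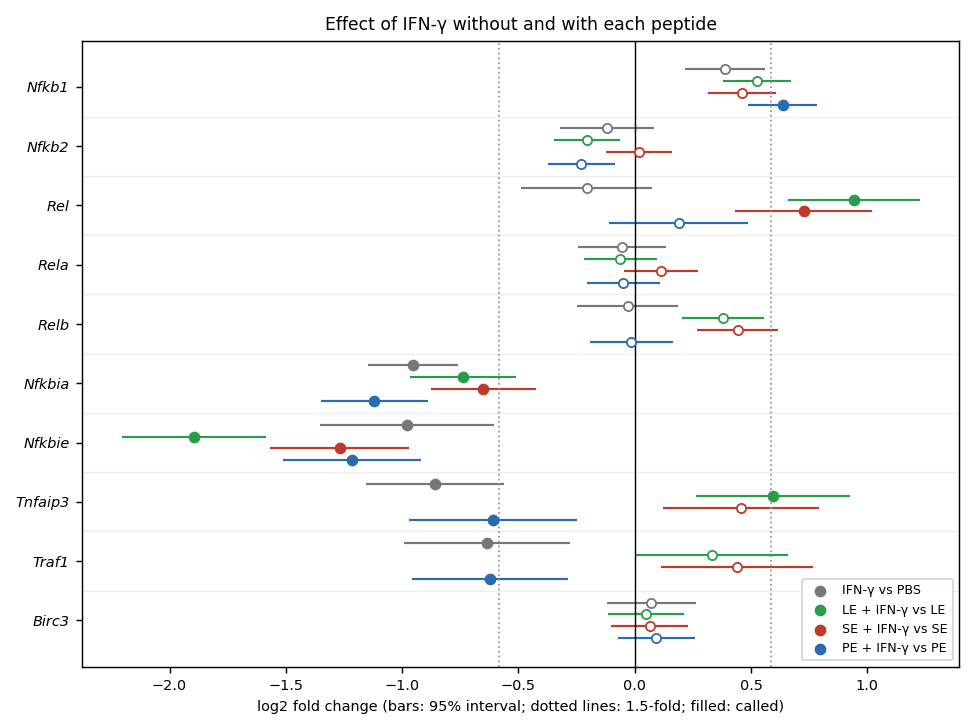
Log2 fold change of each member with IFN-γ, in cells without peptide (IFN-γ vs PBS) and with LE, SE or PE, with 95% intervals; filled points are called and dotted lines mark a fold of 1.5. Nfkbia and Nfkbie lie left of 0 in all 4 settings, whereas Tnfaip3 and Traf1 are filled left of 0 without peptide and with PE. With LE and SE they lie right of 0, where only Tnfaip3 with LE is filled.

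Whether the effect of a peptide depended on IFN-γ was tested as an interaction in a fit of all 8 groups, which reuses the same libraries. For LE the interaction was called for Tnfaip3 (1.45, SE 0.23, adjusted p = 3.14e-05), Rel (1.15, SE 0.20, adjusted p = 8.66e-05), Traf1 (0.97, SE 0.25, adjusted p = 0.00316) and Nfkbie (-0.92, SE 0.23, adjusted p = 0.0034), where 18.9% of 13096 genes were called. The Nfkbie value was -0.63 with an adjusted p of 0.095 without replicate 2. For SE it was called for Tnfaip3 (1.32, SE 0.23, adjusted p = 0.000257), Traf1 (1.08, SE 0.24, adjusted p = 0.00288) and Rel (0.94, SE 0.20, adjusted p = 0.00186), where 7.96% were called and 5.08% were called higher. For PE it was called for 0 of 10 members and 0% of genes, and DESeq2 called 0. An unadjusted p under 0.05 was held by 1 member and by 1073 of the 13096 genes. Relb passed the p threshold with LE (0.41, adjusted p = 0.0147) and SE (0.48, adjusted p = 0.0105) at folds of 1.33 and 1.39.

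The genes whose log2 CPM followed a member most closely over the 24 libraries were taken from 8609 genes outside the members with a mean of at least 10 CPM. By Pearson correlation they were Ahctf1 (0.97), Ncapg2 (0.97) and Tnpo1 (0.97) for Rel, and Otud3 (0.95), Cd52 (0.93) and Maff (0.92) for Relb. For Tnfaip3 they were Ccl9 (0.91), Lasp1 (0.91) and Etv1 (0.90), and for Traf1 Fam129b (0.91), Xylt2 (0.88) and Dedd2 (0.87). No gene was among the 3 of more than 1 member. The points share their libraries and treatment groups, so these values describe likeness over the 8 groups and carry no test.

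The other genes of the pathway were counted from lists of 93 genes, of which 89 were tested with IFN-γ present. LE raised 25 and lowered 2 of them, SE raised 23 and lowered 1, and PE raised 4 and lowered 0, at the same background shares as above. Most of these were inflammatory targets, cytokines, chemokines and effector enzymes whose promoters NF-κB is known to bind. Of 23 tested targets, 17 rose and 0 fell with LE (median log2 fold change 1.76), 16 rose and 0 fell with SE (1.34), and 4 rose and 0 fell with PE (0.13). The list holds genes that the study itself names as raised by LE or SE, such as Irf4, Ccl5, Cxcl10, Pim1 and Tnfrsf9. Only 20 targets passed the filter between IFN-γ and PBS, so some of the 23 passed through the peptide groups. These counts are therefore a description and no independent evidence. Il1a, an interleukin, rose by 2.91 with LE (SE 0.31, adjusted p = 5.42e-07) and by 1.53 with SE, and its PE difference was 0.20 (adjusted p = 0.804). Ccl22, a chemokine, rose by 2.47 with LE, 2.92 with SE and 1.28 with PE. Ccl5, a chemokine for T cells and monocytes, rose by 1.97 with LE (SE 0.09, adjusted p = 2.54e-11), by 3.34 with SE (SE 0.09, adjusted p = 1.48e-14) and by 0.88 with PE (adjusted p = 0.000144). Csf3, the granulocyte growth factor, averaged 0.0137 CPM with IFN-γ alone and 2.38, 1.73 and 0.33 CPM with LE, SE and PE, and no fold is given against so low a level. Among the 10 members the largest of these differences was 1.52.

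The remaining lists hold upstream and regulatory genes and survival targets, and their counts are to be read against the 9.58% (LE) and 5.01% (SE) of all genes called higher. Among 24 kinases and adaptors, LE raised Irak2 (0.84), Ticam1 (0.61) and Tab3 (0.61), SE raised Irak2 (0.70) and Ticam1 (0.67), and PE none; Irak2 is a kinase of the Toll-like and IL-1 receptor complex and Ticam1 the adaptor of Tlr3. Of 14 receptors, LE raised Tnfrsf1b, a TNF receptor (0.70), and both LE and SE lowered Il1r1, the IL-1 receptor (-1.15 and -0.89), which averaged 2.61 CPM with IFN-γ alone. Among 4 further IκB proteins, Nfkbiz, a nuclear member induced by Toll-like receptor signals, rose by 1.35 with LE and 0.66 with SE, and Bcl3 by 0.62 with SE. Of 16 other negative regulators, Zc3h12a, an RNase that degrades inflammatory mRNAs, rose by 1.18 with LE and 0.64 with SE, and Commd1, which promotes the breakdown of NF-κB subunits, fell by 0.79 with LE. Of 10 survival targets, Gadd45b, a stress-induced gene, rose by 2.33 with LE and 2.11 with SE, Xiap, a caspase inhibitor, by 0.83 with LE and Bcl2a1a by 0.65 with SE. Bcl2a1a has near-identical copies, and only uniquely aligned reads were counted, so reads common to the copies are missing from its counts. IFN-γ against PBS called 23 of 86 tested pathway genes higher and 7 lower, where 18.1% of all genes were called in either direction and 8.28% were called lower; the members were not tested against these genes.

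**Figure D5:**
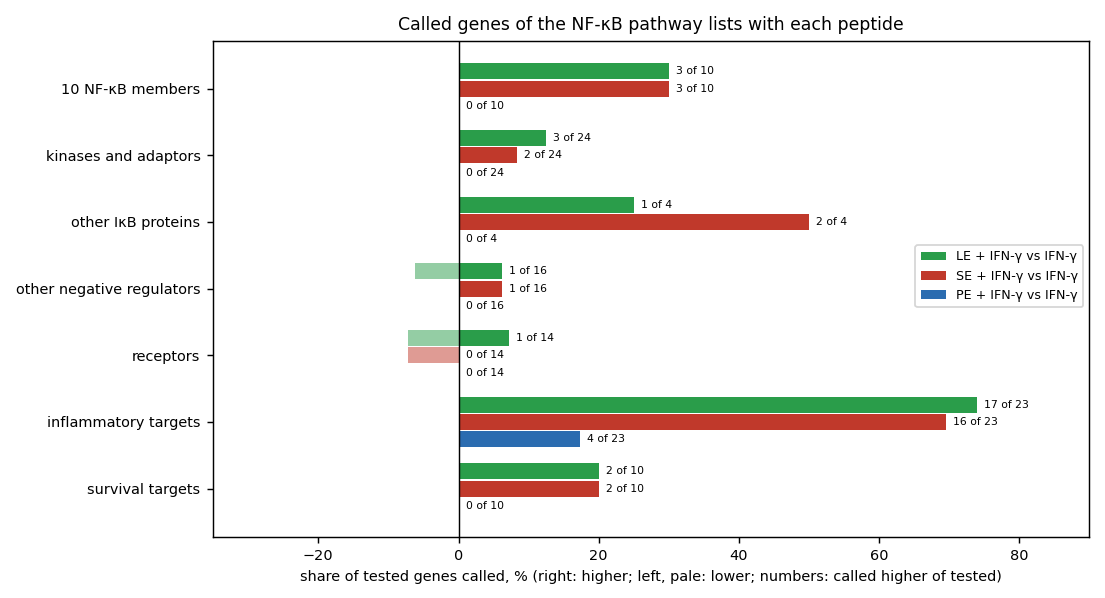
Share of the tested genes of each list called higher (right) or lower (left, pale) with LE, SE or PE plus IFN-γ against IFN-γ alone, in percent, with the number called higher. Inflammatory targets have 17, 16 and 4 of 23 called higher, and the 10 members 3, 3 and 0. The lists were chosen with earlier results of these data known, so the shares are no independent evidence.

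The genes whose log2 CPM over the 24 letter-labelled libraries ran most nearly parallel to a member were sought among 8609 genes with a mean of at least 10 CPM. For Rel they were Ahctf1 (Pearson's r = 0.97), Ncapg2 (0.97) and Tnpo1 (0.97), and for Relb Otud3 (0.95), Cd52 (0.93) and Maff (0.92). For Tnfaip3 they were Ccl9 (0.91), Lasp1 (0.91) and Etv1 (0.90), and for Traf1 Fam129b (0.91), Xylt2 (0.88) and Dedd2 (0.87). These values describe 24 libraries that fall into 8 groups of 3 and share the composition and depth of each library, so they carry no p.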

How the data were processed

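RNA of RAW264.7 cells was made into libraries from 200 ng of total RNA, and single-end reads of 100 bases were taken. The authors counted uniquely aligned reads per gene with featureCounts on GRCm38.p5 and deposited 1 table of raw, unnormalized counts, with 49568 genes and 48 columns; they tested their own counts with DESeq2 1.16.1 in R 3.4.1. The labels and the methods differ on whether the kit was stranded, and the strand setting of the counting is not given in the sources used here. Group and replicate came from the labels, and 0 columns were left unmatched.

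The 24 letter-labelled libraries were fitted in R 4.3.3 with edgeR 4.0.16 (TMM, filterByExpr, glmQLFit, glmQLFTest) over the whole table, with the groups of each fit taken from the contrasts of the study. Adjusted p-values are Benjamini-Hochberg values over all genes tested, and calls also needed a fold over 1.5. CPM used plain library totals (TMM factors 0.949 to 1.06), and CPM per kb the exon union of GENCODE on GRCm38. No pair of replicates agreed within sampling noise (chi-square per degree of freedom 3.89 to 25.9). Same-numbered libraries deviated together (r over 0.1 for all 3 numbers) in 3 of 13 pairs of groups compared (IFN-γ and PBS, LE with IFN-γ and IFN-γ, LE and SE with IFN-γ); the numbers come from the titles, which name no shared culture or day. Intervals are 95% intervals of the fit. The scripts were tested on simulated counts. Alternatives were DESeq2 1.42.0, its size factors, no filter on low counts, 1 fit of all 8 groups, a replicate block, other sets of libraries, leaving out each replicate, no minimum fold and, chosen after seeing the data, subtraction of a lowess trend (span 0.3) of the fold changes with length and GC content.

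The 10 members, the pathway lists and the markers were chosen with earlier results of these data known, so no count over them is independent evidence. All 10 members are described. From each pathway list, the text names at most 3 called genes in each direction, by size of change with LE or SE and IFN-γ, plus a lone called gene elsewhere. For Rel, Relb, Tnfaip3 and Traf1, called with a peptide and IFN-γ, the text names the 3 genes with the highest Pearson correlation.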

Additional observations from a re-analysis of the deposited data

Results flagged for a closer look

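The effect of LE on 4 members and of SE on 3 members differed between cells with and without IFN-γ by the interaction test (edgeR's quasi-likelihood test, log2 scale, 3 libraries a group). With LE the interaction was 1.45 for Tnfaip3, 1.15 for Rel, 0.97 for Traf1 and -0.92 for Nfkbie. With SE it was 1.32 for Tnfaip3, 1.08 for Traf1 and 0.94 for Rel.

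The HLA-labelled libraries, which the comparisons above do not use, held further differences from the libraries labelled PBS. In those labelled LE, Tnfaip3 was higher by 1.33, Traf1 by 0.93, Relb by 0.85 and Rel by 0.64 on the log2 scale, and Nfkbie was lower (-1.19, adjusted p = 2.82e-05). In those labelled PE, Relb was higher by 0.71, Tnfaip3 by 0.70 and Rel by 0.67, and Nfkbie was lower (-1.14, adjusted p = 4.44e-05). In the check of IFN-γ-induced genes, the libraries labelled LE were at a mean log2 CPM of 7.45 to 7.55 and those labelled PE at 7.22 to 7.41. The libraries labelled PBS were at 2.06 to 2.33, so these differences also set high against low levels of IFN-γ-induced genes. Since 12 of the 24 HLA-labelled libraries went against their label in this check, the differences are not assigned to a peptide.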

How the results depend on the processing

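With DESeq2's size factors, DESeq2's Wald test, no filter on low counts, 1 fit of all 8 groups or the replicate block, the counts of called members stayed within 1.5 times their reported value in all 16 comparisons, and all 37 calls of single members held. The replicate block lost 0 of the 37 calls. Counts rest on 3 libraries a group. Across genes, the spread between replicates exceeded sampling noise (chi-square per degree of freedom 3.89 to 25.9). The part of counting error in the spread of single members was not tested.

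Leaving out each replicate in turn gave 3 to 4 called members for IFN-γ vs PBS, and with IFN-γ present 4 to 5 for LE, 3 for SE and 0 to 1 for PE against IFN-γ alone, 1 to 2 for LE vs SE, 3 to 4 for LE vs PE and 2 to 3 for SE vs PE. It gave 0 for LE, 0 to 1 for SE and 0 to 1 for PE against PBS, 3 to 5, 2 to 4 and 3 to 5 for IFN-γ added to LE, SE and PE, and 3 to 4, 3 and 0 for the interactions. With the length and GC trend subtracted, 0 members were called for LE vs SE with IFN-γ and 0 for SE vs PBS. There was 1 for IFN-γ added to LE and 1 for IFN-γ added to SE. The shares of all genes called in these settings are not given here. In the reported fits they ran from 0% (PE interaction) to 35.1% (IFN-γ added to LE). The counts therefore show how calls moved and are not read as a result about the members. With no minimum fold, LE and SE against IFN-γ alone each had 7 called and PE had 1. Between peptides it gave 5 for LE vs SE, 8 for LE vs PE and 6 for SE vs PE. Against PBS it gave 2 for SE and 3 for PE, and IFN-γ added to LE and SE gave 7 and 7. An unadjusted p under 0.05 was itself common over all genes. It was held by 7116 (LE) and 5386 (SE) of 12720 genes against IFN-γ alone. For LE vs PE it was held by 8121, and for IFN-γ added to LE by 8883 of 12947. The counts with no minimum fold are therefore not read as a result about the members.

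The libraries chosen mattered most. With both label series pooled, 0 members were called for IFN-γ vs PBS, for LE and SE against IFN-γ alone, for LE vs SE, LE vs PE and SE vs PE, for SE vs PBS, for IFN-γ added to SE and for the interactions of LE and SE, and 1 was called for IFN-γ added to LE and 1 for IFN-γ added to PE. With the series as a block these were 1 for IFN-γ vs PBS, 0 for SE against IFN-γ alone, 2 for LE vs PE, 0 for SE vs PE, 2 for LE and 0 for SE against PBS, 1, 0 and 3 for IFN-γ added to LE, SE and PE, and 0 for the interactions of LE and SE. In the HLA-labelled libraries alone they were 0 for IFN-γ vs PBS, 1, 0 and 2 for LE, SE and PE against IFN-γ alone, 0 for LE vs SE, LE vs PE and SE vs PE, 5, 0 and 4 for LE, SE and PE against PBS, 0 for IFN-γ added to SE, 0 for the interaction of SE and 5 for that of PE. Calls over all genes shifted too: IFN-γ vs PBS had 2213 called genes as reported, 1 with both series pooled, 40 with the series as a block and 0 in the HLA-labelled libraries alone, and pooling left 0 to 271 called genes over the 16 comparisons, so a count of 0 there is no result about the members. Of the 24 HLA-labelled libraries, 12 went against their label in the IFN-γ check, and the cause was not tested. All libraries labelled LE (mean log2 CPM 7.45 to 7.55) and PE (7.22 to 7.41) were high. All libraries labelled IFN-γ alone (1.90 to 2.36) and SE with IFN-γ (1.89 to 2.20) were low.

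Differences that changed sign, on the log2 scale, were as follows. With both series pooled, IFN-γ added to LE gave -0.00114 for Rel and -0.85 for Tnfaip3, and the LE interaction of Tnfaip3 was -0.18. With the series as a block, IFN-γ added to LE gave -0.68 for Tnfaip3, and the LE interaction of Traf1 was -0.0668. In the HLA-labelled libraries alone, Nfkbia was 0.0214 for IFN-γ vs PBS, whose libraries were both low in the IFN-γ check. The contrasts carry the names of the labels, which that check goes against for LE, PE, IFN-γ alone and SE with IFN-γ in the HLA-labelled libraries. There, LE against IFN-γ alone gave -0.11 for Tnfaip3 and -0.00637 for Traf1, and SE gave -0.0183 for Relb, -0.0943 for Tnfaip3 and -0.38 for Traf1. Rel was -0.16 for LE vs PE and 0.13 for SE vs PBS. IFN-γ added to LE gave -0.49 for Rel, 0.28 for Nfkbie and -1.98 for Tnfaip3, IFN-γ added to SE gave -0.0213 for Rel, and IFN-γ added to PE gave -0.33 for Nfkb1 and 0.37 for Nfkbie. The LE interaction was -0.54 for Rel, 0.55 for Nfkbie, -1.43 for Tnfaip3 and -0.94 for Traf1, and the SE interaction -0.0703 for Rel and -0.18 for Traf1.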
